A study of Mus musculus with 26 samples.

Results

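ChIRP-seq regions of the DRR enhancer RNA that were found with probe pool 1 and not with probe pool 2 are described here in C2C12 myotubes. C2C12 is a line of mouse muscle precursor cells, or myoblasts, which in low serum join into myotubes with many nuclei. Each ChIRP summit, the single base at the top of a peak, was widened by 250 bp on each side, and overlapping windows of the 4 ChIRP lists were merged into regions. Of 97279 such regions on the 19 autosomes and chromosome X, 3459 were called in both pool 1 lists and in neither pool 2 list, which is 3.56%. The members were thus chosen by their calls in the 4 ChIRP lists, and their ChIRP calls, scores and ranks are given as a description. The choice rested on a short list. Pool 1 replicate 1 gave 3700 regions and replicate 2 gave 67862, so the members made up 93.5% of the regions of replicate 1 and 5.10% of those of replicate 2. Without pool 1 replicate 1, the same rule would keep 66747 regions.

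The study used 16 peak lists in 8 groups of 2 libraries, whose coordinates follow build mm9 of the mouse genome, as the submitters' processing notes say. ChIRP with pool 1 and with pool 2 was done in myotubes, for which the labels name no transfection. ChIP-seq of SMC3 was done in myotubes transfected with siDRR, an siRNA against the DRR RNA, in myotubes with no transfection named, and in myoblasts. ATAC-seq was done in myotubes transfected with siDRR, with siSmc3 or with a control. For SMC3, siDRR was thus set against myotubes without a named transfection, and the siRNA and the transfection itself cannot be told apart. Myotubes were kept in 2% horse serum and myoblasts in 20% serum per the labels' protocols. The labels do not say that replicates came from separate cultures, and p-values then measure only a spread between libraries that may be technical. The 10 input and LacZ probe samples were not analysed here, so no background pull-down stands beside the ChIRP values.

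DRR stands for the distal regulatory region, an enhancer upstream of Myod1, the gene of a transcription factor that drives muscle differentiation. Active enhancers are transcribed into enhancer RNAs. In ChIRP, biotinylated DNA probes that tile an RNA pull it down with the chromatin it is crosslinked to, and the probes are commonly split into separate pools, so that sites recovered with each pool can be told from those recovered with a single pool. SMC3 is a core subunit of cohesin, the ring that holds chromatin loops, and ATAC-seq marks open chromatin by transposase insertion. A genome or annotation of build mm9 was not used here, so the regions are named by their coordinates, without gene names or bases.

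Few regions of pool 1 were shared with pool 2, in the replicate 2 list at large and among regions of both lists. Of the 67862 regions of pool 1 replicate 2, 1124 held a summit of a pool 2 list, a smaller share than that of the regions called in both pool 1 lists. Of the 3603 regions called in both pool 1 lists, 144 (4.0%) held a summit of a pool 2 list, 101 (2.80%) held summits of both pool 2 lists, and the other 3459 (96.0%) were the members. How far the pools may lie apart is set by the width of the windows. In the 144 shared regions the nearest pool 1 and pool 2 summits lay a median of 12.5 bp apart, in 94 of them they lay 100 bp or less apart and in 31 over 250 bp. Among the members, 54 had a pool 2 summit within 1 kb of a pool 1 summit. The member just inside the limit was chr1:121943568-121944162, whose nearest summits of the pools were 501 bp apart. It stood at rank percentiles 98.99 and 99.95 in the pool 1 lists, where a rank percentile orders the peaks of 1 list by the deposited score, with 100 for the best, and its pool 2 neighbours stood at 39.9 and 57.5. The other members nearest to the limit were chr19:58932321-58932822 at 509 bp, chr13:47127005-47127560 at 522 bp, chr2:27197477-27198006 at 525 bp and chr1:77786818-77787379 at 528 bp. Just outside it, chr17:45420628-45421670 had nearest summits 498 bp apart and chr2:5443957-5445003 had them 487 bp apart, followed by chr16:18315633-18316649 at 486 bp, chr11:75667508-75668531 at 485 bp and chr10:57688602-57689685 at 481 bp.

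The members were compact, and the best summits of the replicates lay close together. The rule favours this, since only overlapping windows of 250 bp on each side of a summit were merged. It is not particular to the members: regions called in both pool 2 lists and no pool 1 list, here pool 2 only, had a median width of 525 bp. Of the 3459 members, 3382 (97.8%) held exactly 2 summits, 1 of each replicate. The best summits of the replicates lay a median of 26 bp apart, within 50 bp in 2517 members (72.8%) and over 250 bp apart in 55 (1.59%). Region widths ran from 501 bp through a median of 527 bp to 1447 bp, and 3205 members (92.7%) were at most 600 bp wide.

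The members formed the top of the pool 1 replicate 2 list while covering the whole of the replicate 1 list. Their scores in replicate 1 had a minimum of 1.53, a median of 12.1 and a maximum of 142, and in replicate 2 a minimum of 2.33, a median of 50.4 and a maximum of 496. The scale of the score is not stated, so scores are read only as an order within a list. The median rank percentile was 51.6 in replicate 1 and 97.1 in replicate 2. In replicate 2, 2765 members (79.9%) stood at percentile 90 or higher and 123 (3.56%) under 50. Regions called in replicate 2 alone had a median of 46.9 there. The regions of both pools are the 1146 that held a summit of at least 1 list of each pool, a larger set than the 144 above. The 1124 of them called in replicate 2 had a median of 39.5. Among the 676 replicate 2 regions in the best 1% of that list, 631 (93.3%) were members, 3.70% were regions of both pools and 2.96% were called in replicate 2 alone. The share of members was 64.0% between percentiles 95 and 99, 11.4% between 90 and 95, and 0.364% in the lower 50%. The ranks of the members in the replicates had a Spearman rho of 0.725 across the 3459 regions, a description of sites within 1 pair of libraries. All 357 members at percentile 90 or higher in replicate 1 stood at 90 or higher in replicate 2 as well.

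**Figure D1:**
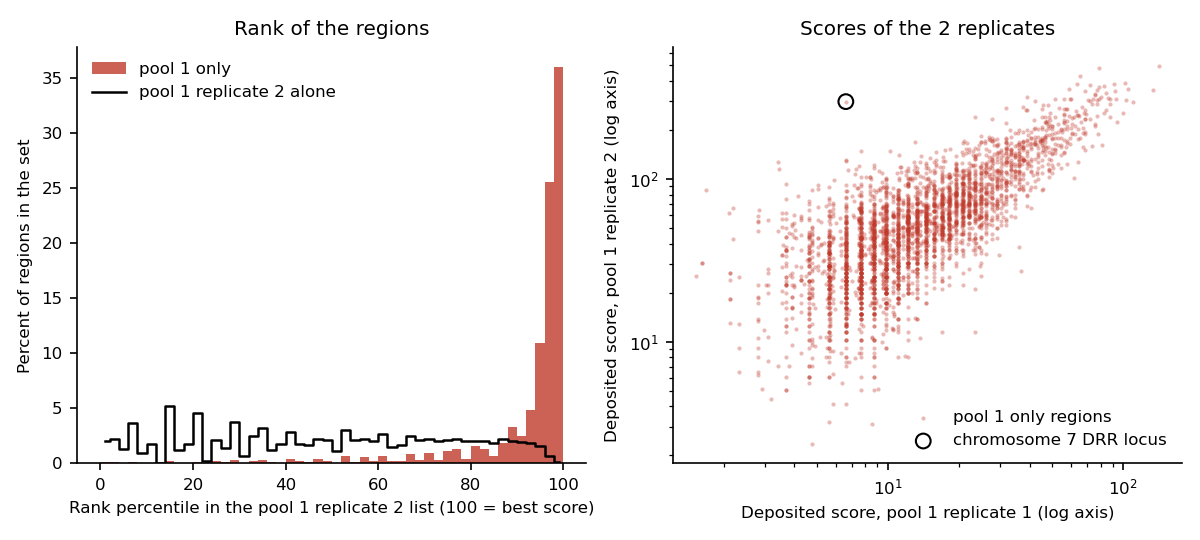
Left, the percent of regions in each class of rank percentile in the pool 1 replicate 2 list, for the pool 1 only regions (bars) and for regions called in replicate 2 alone (line). Right, the deposited scores of each pool 1 only region in replicate 1 (horizontal, log axis) and replicate 2 (vertical, log axis). The bars pile up near 100, with a median of 97.1, and the circled region at the DRR locus stands apart, with scores of 6.62 and 299.

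The 10 members with the highest mean rank percentile were led by chr9:42826872-42827397, which had the top score of both lists, 142 in replicate 1 and 496 in replicate 2. Next came chr2:167094851-167095387, with scores of 133 and 351, and chr1:73878934-73879589, with 105 and 355. The others were chr8:97232130-97232632, chr14:26182952-26183523, chr17:15859641-15860188, chr11:33589787-33590310, chr1:128172069-128172610, chr12:80695785-80696294 and chr2:167576151-167577016. None of these 10 touched an SMC3 peak in any of the 6 SMC3 lists. A single ATAC peak lay among them, at chr1:73878934-73879589 in siSmc3 replicate 1, at percentile 45.1. Counts this low are near the background, since a peak of any of the 6 SMC3 lists was found at 5.44% of the members and 4.39% of all ChIRP regions, and one of any of the 6 ATAC lists at 12.7% and 12%.

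The member at the DRR locus itself was examined after its values had been seen, and its ranks in the pool 1 replicates differed widely. It lay at chr7:53627329-53628198, a stretch of 870 bp. Its place at the DRR is taken from general knowledge of the mouse map, since no mm9 annotation was used. Replicate 2 had its summit at 53627948 with a score of 299, the 40th of 68166 summits. Replicate 1 had summits at 53627902 and 53627579 with scores of 6.62 and 6.60, at places 3149 and 3191 of 3765. Of the 62 members in the best 0.1% of replicate 2, 2 stood under percentile 90 in replicate 1, and this region, at 17.6, was 1 of them. Across all members, 12 stood at 99 or higher in replicate 2 and under 25 in replicate 1.

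Pool 2 had its own strong region beside it. That region, chr7:53626578-53627083, ended 245 bp from the edge of the member, and the replicate 2 summits of the pools lay 1120 bp apart. Its summits were 53626833, at place 131 of 22983, and 53626828, at place 13 of 20204. Each pool ranked a site of the DRR locus near the top of at least 1 list, at neighbouring positions that 250 bp windows did not join. With summits widened by 500 bp, with the better-scoring 50% of each list, or with no pool 2 summit allowed within 2 kb, the locus was no longer a member. No SMC3 or ATAC peak of the 12 lists touched the member. An ATAC peak began 3364 to 3742 bp from its centre in both siDRR lists, in siSmc3 replicate 1 and in both control lists, and not in siSmc3 replicate 2. On the same side, an SMC3 peak that began 5438 to 6186 bp from the centre was found in all 6 SMC3 lists. A weaker pool 2 region, chr7:53608412-53608964, lay 18364 bp away on the other side and met an ATAC peak in all 6 ATAC lists. It also met an SMC3 peak in both myotube lists, in siDRR replicate 2 and in myoblast replicate 2. None met it in siDRR replicate 1 or myoblast replicate 1.

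**Figure D2:**
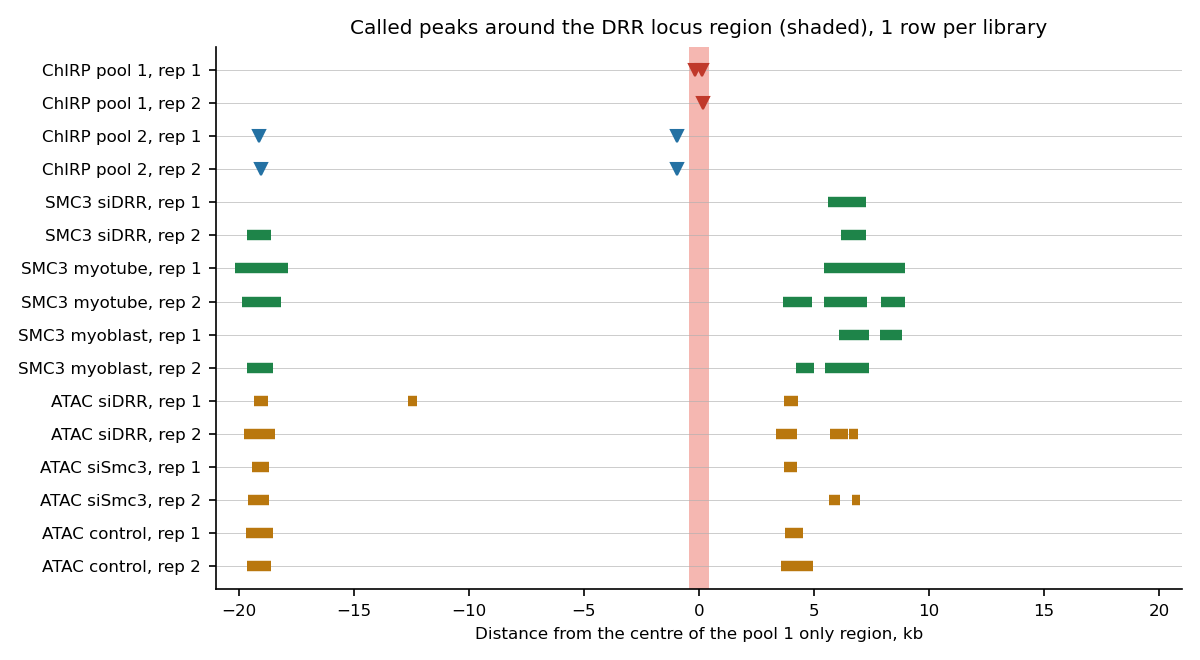
Peaks of the 16 lists around the pool 1 only region at the DRR locus, by distance in kb from the centre of that region, with 1 row per library, triangles for ChIRP summits and bars for ATAC and SMC3 peaks. Pool 1 and pool 2 summits stand side by side at the centre, where no SMC3 or ATAC peak is drawn.

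The members were spread unevenly over the chromosomes. Chromosome X held 55 members (1.59%), against 7.20% of the regions of replicate 2 alone, 5.41% of those of pool 2 only and 4.10% of those of both pools. The low share on X was also found among strong sites: X held 1.66% of the 2765 members at percentile 90 or higher and 7.81% of the 3917 regions of replicate 2 alone at such ranks. The share was bound to the short list, since the members made up 93.5% of the regions of pool 1 replicate 1, and this holds for the strong members too. X took 1.59% of the summits of replicate 1 and 6.86% of those of replicate 2. Without replicate 1 the share would be 6.91%. SMC3 lists had 1.53% to 2.27% of their peaks on X and ATAC lists 2.31% to 2.93%. The 55 X members otherwise ranked like the rest, with median percentiles of 51.6 in replicate 1 and 96.7 in replicate 2. Chromosomes 5 and 8 stood at the other end, with 294 members (8.50%) on chromosome 5, against 5.67% of replicate 2 alone, 6.04% of pool 2 only and 6.98% of both pools. Chromosome 8 held 287 members (8.30%), against 5.19% of replicate 2 alone, 6.31% of pool 2 only and 7.24% of both pools, and 7.20% of replicate 2 alone at percentile 90 or higher. Per 100 regions of replicate 2, there were 7.85 members on chromosome 8, 7.42 on chromosome 5 and 1.18 on X.

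**Figure D3:**
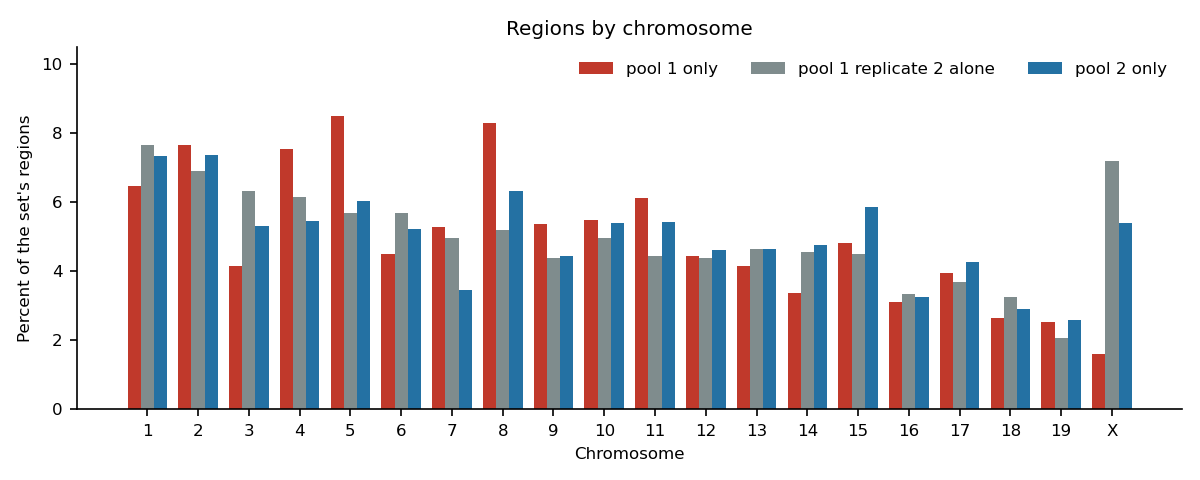
Percent of regions on each chromosome for the pool 1 only regions, the regions of pool 1 replicate 2 alone and those of pool 2 only. Chromosome X holds 1.59% of the pool 1 only regions against 7.20% of the regions of pool 1 replicate 2 alone.

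Some members lay in dense runs. The median distance to another member was 144280 bp, and 307 members (8.88%) had another within 10 kb. Of the 1532 windows of 1 Mb that held a member, 136 held 5 or more. The densest run was chr8:125180667-126148467 with 36 members, among which lay 40 regions of replicate 2 alone, 5 of pool 2 only and 1 of both pools. Next were chr4:139292631-140216648 with 30 members and chr5:111919347-112834808 with 22. The run on chromosome 8 was strong in replicate 2, with a median percentile of 99.1, and middling in replicate 1, with 48.4. No member in the runs on chromosomes 8 and 4 touched SMC3 in both myotube lists or ATAC in both control lists, and in the run on chromosome 5 a single member touched ATAC in both. With SMC3 at 1.23% and ATAC at 2.93% of all ChIRP regions, runs of this size would hold few such members, and nothing is read from these counts.

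Most members touched no called SMC3 or ATAC peak, and their share was near that of all ChIRP regions. Of the 3459 members, 2944 (85.1%) touched no peak in any of the 12 SMC3 and ATAC lists, against 86.6% of all ChIRP regions. The share was 88.9% for the regions of replicate 2 alone, 81.1% for pool 2 only and 78.3% for both pools. SMC3 in both myotube lists was found at 57 members, 1.65% with an exact Clopper-Pearson 95% interval of 1.25% to 2.13% that covers counting error only, against 1.23% of all ChIRP regions. ATAC in both control lists was found at 107 members, 3.09% with an interval of 2.54% to 3.73%, against 2.93% of all ChIRP regions and 6.11% of the regions of both pools. The ATAC share of the members was thus near that of all ChIRP regions. A wider region can touch more peaks, and median widths were 651 bp for both pools and 527 bp for the members. They were 525 bp for pool 2 only and 501 bp for replicate 2 alone. SMC3 in both myotube lists and ATAC in both control lists met at 14 members (0.405%), against 0.289% of all ChIRP regions and 0.451% of those of pool 2 only. Without pool 1 replicate 1, the SMC3 share would be 1.00% and the ATAC share 2.34%. The regions of pool 2 only, called like the members in both lists of a pool, had 1.65% for SMC3 and 4.11% for ATAC. The regions of replicate 2 alone, from the same pool as the members, had 0.969% for SMC3 and 2.30% for ATAC. When they were weighted to the ranks of the members in 10 classes, they had 1.05% for SMC3 and 2.08% for ATAC. In a finer split of the best class, added after the data had been seen, they had 0.601% and 2.19%. That split rests on few regions, since above percentile 99 replicate 2 alone made up 2.96% of 676 regions and 631 were members.

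Single libraries were compared in the same way. The percent of members touched was 1.13 to 1.30 times that of all ChIRP regions in the 6 SMC3 lists and 0.985 to 1.05 times in the 6 ATAC lists. Against the regions of replicate 2 alone, the ratio was 1.39 to 1.61 in the SMC3 lists and 1.21 to 1.30 in the ATAC lists. Against the regions of pool 2 only it was 0.804 to 1.02 in the SMC3 lists and 0.692 to 0.744 in the ATAC lists. The ATAC shares of the members were therefore below those of pool 2 only in all 6 ATAC lists. All lists were set against the same ChIRP regions, so the ratios are not independent of each other.

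**Figure D4:**
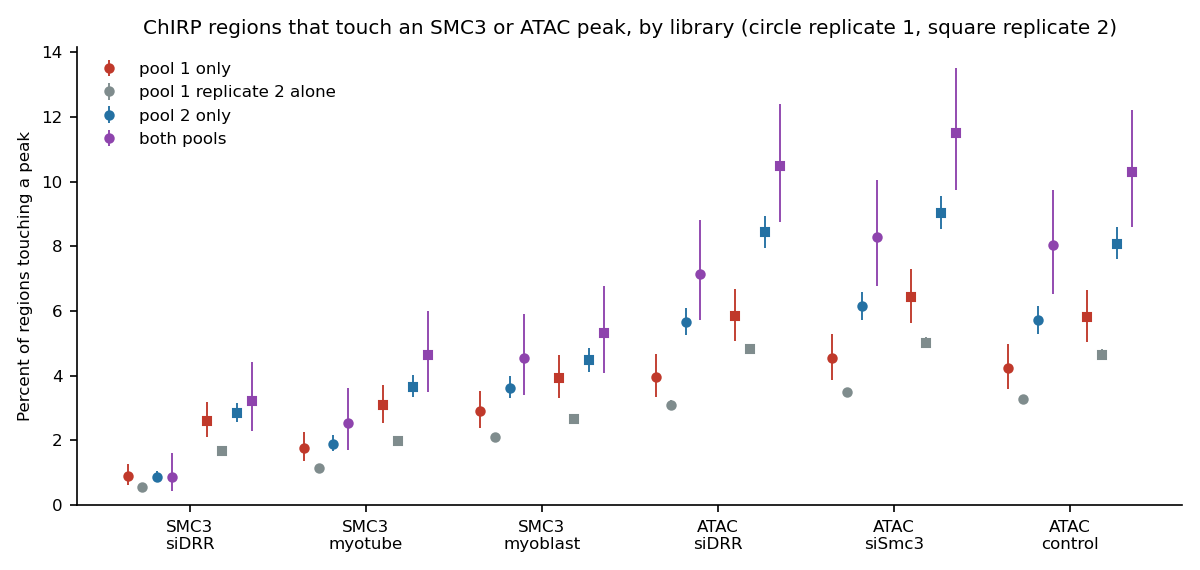
Percent of regions touching a peak in each SMC3 and ATAC library, for the pool 1 only regions and the other ChIRP sets, with circles for replicate 1, squares for replicate 2 and bars for exact 95% binomial intervals that cover counting error only. Pool 1 only regions had 1.76% and 3.09% in the SMC3 myotube libraries, and 4.25% and 5.81% in the ATAC control libraries.

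Open chromatin was more frequent at the weaker members. By quintile of the members in order of their rank in replicate 1, lowest first, ATAC in both control lists was found at 6.65%, 3.61%, 1.88%, 1.88% and 1.45%, or 46 of 692 members in the lowest quintile and 10 of 692 in the highest. The lowest quintile had the highest share in each of the 6 ATAC lists, for example 8.96% and 10.1% in the control lists against 2.46% and 2.89% in the highest quintile. By rank in replicate 2, the shares were 6.79%, 4.48%, 1.30%, 1.73% and 1.16%. For SMC3 in both myotube lists, the quintiles by rank in replicate 1 held 2.31%, 1.88%, 1.74%, 0.867% and 1.45%, with 16 members in the lowest quintile and 10 in the highest. By that rank, the lowest quintile also had the highest share in each of the 6 SMC3 lists. By rank in replicate 2, the SMC3 shares were 3.47%, 1.30%, 1.16%, 1.16% and 1.16%.

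Although few members touched a peak, they lay nearer to peaks than the regions of replicate 2 alone. The median distance from a member to the nearest SMC3 peak of either myotube list was 25602 bp, against 63954 bp for the regions of replicate 2 alone, 28889.5 bp for pool 2 only and 27109.5 bp for both pools. The median distance to the nearest ATAC peak of either control list was 4372 bp for the members, 11401 bp for replicate 2 alone, 5479 bp for pool 2 only and 5136 bp for both pools. An ATAC peak lay within 10 kb of 70.0% of the members and of 47.2% of the regions of replicate 2 alone, and an SMC3 peak within 10 kb of 30.2% and 17.9%. At percentile 90 or higher in replicate 2, the medians were 27150 bp to SMC3 and 4617 bp to ATAC for the members, against 81100 bp and 13431 bp for replicate 2 alone. Each single list gave the same order: the medians to SMC3 were 45448 bp and 27161 bp for the members against 112404 bp and 66887 bp, and those to ATAC 10322 bp and 5794 bp against 23459 bp and 14843 bp. The medians of the members were thus under those of replicate 2 alone in each of these lists. Without pool 1 replicate 1, the medians would be 60070 bp to SMC3 and 10768 bp to ATAC.

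Pool 2 summits lay somewhat nearer to the members as well, at a median of 24747 bp against 31777 bp for the regions of replicate 2 alone, with a pool 2 summit within 1 kb of the region for 2.31% of the members and 2.02% of the regions of replicate 2 alone.

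**Figure D5:**
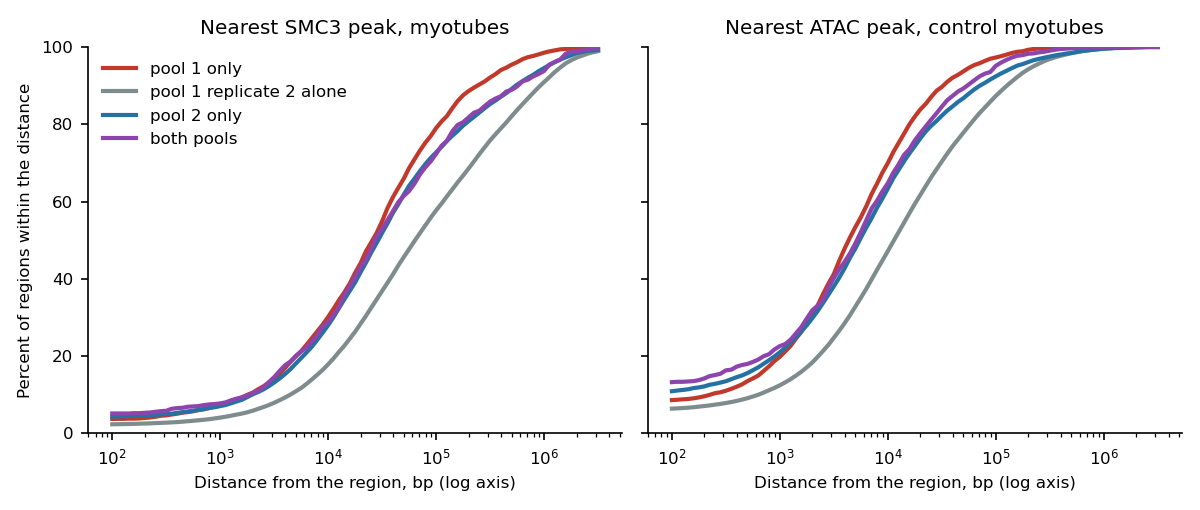
Cumulative percent of regions within a given distance (bp, log axis) of the nearest SMC3 peak of either myotube list (left) and the nearest ATAC peak of either control list (right), by ChIRP set. The curve of the pool 1 only regions lies above that of pool 1 replicate 2 alone, with 30.2% and 17.9% within 10 kb of SMC3 and 70.0% and 47.2% within 10 kb of ATAC.

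The members that touched SMC3 in both myotube lists were led by chr15:8956189-8956729, with SMC3 at percentiles 86.2 and 74.8 in siDRR myotubes, 59.7 and 69.0 in myotubes and 88.9 and 89.3 in myoblasts. It was called in all 6 SMC3 lists and in no ATAC list, as was chr9:37424508-37425009. High SMC3 ranks were found at chr2:166606780-166607366, with 74.1 and 97.1 in siDRR myotubes, 98.8 and 98.6 in myotubes and 97.7 and 91.7 in myoblasts. In all, 28 members (0.809%) were called in all 6 SMC3 lists, against 0.546% of all ChIRP regions, 0.668% of those of pool 2 only and 0.698% of those of both pools. Of the members that touched ATAC in both control lists, chr15:84066446-84066964 and chr11:102244926-102245440 stood high in the ChIRP lists and were called in all 6 ATAC lists. The strongest open site among the 10 that led this set was chr1:194647882-194648460, with ATAC at percentiles 98.4 and 98.4 in siDRR, 98.9 and 99.7 in siSmc3 and 99.4 and 99.8 in control myotubes. In all, 57 members (1.65%) were called in all 6 ATAC lists, against 1.64% of all ChIRP regions.

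The comparison of myotubes with myoblasts asked whether cohesin at the members changed with differentiation. A member is called lost when both lists of the group set against and neither list of the group compared held a peak, and gained in the opposite case. SMC3 was found in both myoblast lists at 83 members (2.40%), against 2.19% of all ChIRP regions. It was lost in myotubes at 16 members (0.463%), against 0.486% of all ChIRP regions, and gained at 2 (0.0578%), against 0.072%. It was present in all 4 lists at 52 members (1.50%), against 1.09%. Of the 83 members with SMC3 in both myoblast lists, 19.3% were lost in myotubes, against 22.2% of the 2133 ChIRP regions with such calls. The shares lost and gained were thus near those of all ChIRP regions. The lost member with the highest ChIRP rank was chr4:119592788-119593363, with no SMC3 peak in myotubes and peaks at percentiles 76.6 and 62.0 in myoblasts. The 2 gained members were chr8:86734368-86734872, with peaks at 15.6 and 77.4 in myotubes and none in myoblasts, and chr5:64727983-64728545, with 26.7 and 24.4 in myotubes and none in myoblasts. Both gained members touched ATAC in both control lists.

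SMC3 was found at 1.76% and 3.09% of the members in the myotube libraries, 2.43% ± 0.940 (SD, n = 2), and at 2.92% and 3.93% in the myoblast libraries, 3.43% ± 0.715. The groups overlapped, and the difference of -0.997 percentage points did not pass a two-sided exact permutation test over libraries (p = 0.667). With lists of equal length it was -0.141 (exact permutation p = 0.667). With 2 libraries in each group that exact test cannot go below p = 0.333, so none of the 4 comparisons could pass. With 1 replicate of each group, SMC3 was lost in myotubes at 54 members without replicate 1 and at 46 without replicate 2. Without pool 1 replicate 1, SMC3 was lost at 264 of the 66747 regions that the rule would keep. No share of all ChIRP regions stands beside these counts. Relative to the share of all ChIRP regions, which sets list length aside in part, the ratio was 1.24 and 1.22 in myotubes and 1.13 and 1.19 in myoblasts (exact permutation p = 0.333). The ratios did not overlap between the groups, and the difference turned to -0.0245 with lists of equal length.

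The comparison with siDRR asked whether cohesin at the members depended on the DRR RNA. SMC3 was found in both siDRR lists at 29 members (0.838%), against 0.642% of all ChIRP regions. It was lost with siDRR at 4 members (0.116%), against 0.117% of all ChIRP regions, and was gained at 0, against 0.00411%. It was present in all 4 lists at 28 members (0.809%), against 0.563%. Of the 57 members with SMC3 in both myotube lists, 7.02% were lost, against 9.52% of 1198 ChIRP regions. Over all members, the share lost was thus near that of all ChIRP regions. Among those with SMC3 in both myotube lists it was lower, a figure that rests on 4 lost members. The lost member with the highest ChIRP rank was chr13:43690381-43690885, with no SMC3 peak in siDRR myotubes, peaks at percentiles 73.4 and 87.1 in myotubes and at 80.7 and 82.9 in myoblasts. The others were chr18:57829911-57830487, with 19.6 and 37.4 in myotubes, chr3:136568652-136569196, with 5.29 and 11.6 in myotubes, and chr17:56148293-56148824, with 29.2 and 66.5 in myotubes. At the last of these, ATAC peaks stood at 91.2 and 97.4 in siDRR myotubes and at 93.0 and 97.1 in control myotubes. Over libraries, SMC3 was found at 0.896% and 2.60% of the members with siDRR, 1.75% ± 1.21 (SD, n = 2), and at 1.76% and 3.09% in myotubes, 2.43% ± 0.940. The difference of -0.679 percentage points was smaller than the SD of either group (exact permutation p = 0.667). Relative to all ChIRP regions, the ratio was 1.30 and 1.24 with siDRR and 1.24 and 1.22 in myotubes (exact permutation p = 0.667). The siDRR lists had fewer SMC3 peaks in all, 8384 and 23196 against 15056 and 26765 in myotubes, and with all lists of an assay cut to the length of the shortest, ChIRP lists included, which leaves 2490 members, the difference was -0.0201 (exact permutation p = 1). The members lost numbered 34 without replicate 1 and 33 without replicate 2, where 1 list decided each call. Without pool 1 replicate 1, SMC3 was lost at 55 of the 66747 regions that the rule would keep. No share of all ChIRP regions stands beside these counts.

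The ATAC comparisons asked whether open chromatin at the members depended on the DRR RNA or on SMC3, and both use the same 2 control libraries. ATAC was found in both lists at 93 members (2.69%) with siDRR, against 2.73% of all ChIRP regions, and at 96 (2.78%) with siSmc3, against 2.64%. With siDRR, ATAC was lost at 11 members (0.318%), against 0.194% of all ChIRP regions, and gained at 4 (0.116%), against 0.133%. It was present in all 4 lists at 70 members (2.02%), against 2.09%. Of the 107 members with ATAC in both control lists, 10.3% were lost, against 6.63% of 2852 ChIRP regions. With siSmc3, ATAC was lost at 13 members (0.376%), against 0.248%, gained at 11 (0.318%), against 0.242%, and present in all 4 lists at 66 (1.91%), against 1.87%. Of the 107, 12.1% were lost with siSmc3, against 8.45%. The shares lost lay above the background with each siRNA, and the share gained did so with siSmc3 and not with siDRR. The counts are small and rest on the same control lists, so nothing is read from the excess. With siDRR and siSmc3, 8 and 8 members were lost at an overlap of 100 bp. With summits widened by 100 bp they numbered 8 and 6, and with 500 bp 11 and 12. These counts of the alternative settings were not set against the share of all ChIRP regions. The shares with ATAC in both or all 4 lists were near the background.

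Among the members lost with siDRR, chr2:35782920-35783474 had the highest ChIRP rank, at percentiles 98.1 and 99.9. It had no ATAC peak in the siDRR or siSmc3 lists, and peaks at 79.4 and 84.2 in the control lists. The members chr2:167553200-167553739, with 60.5 and 62.4 in the control lists, and chr12:9117480-9117989, with 55.4 and 44.5, were likewise without a peak in all 4 knockdown lists. At chr1:36360922-36361424, peaks at 35.1 and 68.1 in control were lost with siDRR, and siSmc3 replicate 2 had a peak. Of the 5 members with the highest ChIRP ranks among those lost with siSmc3, the highest control peaks on average were at chr7:150987943-150988497, with no peak in siSmc3 and 81.6 and 91.8 in control, and the same member had a peak at 90.6 in siDRR replicate 2. Among the 4 members gained with siDRR, chr15:57340111-57340680 had ATAC at 67.4 and 67.7 with siDRR and none in control, and SMC3 in all 6 lists. The member with the highest ChIRP rank among those gained with siSmc3, chr8:94567183-94567686, had low ATAC peaks at 1.75 and 30.5 with siSmc3 and none in control.

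Over libraries, ATAC was found at 3.96% and 5.84% of the members with siDRR, 4.90% ± 1.33 (SD, n = 2), at 4.54% and 6.42% with siSmc3, 5.48% ± 1.33, and at 4.25% and 5.81% in control, 5.03% ± 1.1. The differences from control were -0.130 percentage points for siDRR (exact permutation p = 1) and 0.448 for siSmc3 (exact permutation p = 0.667), both smaller than the spread between replicates. The siDRR difference was 0.221 with summits widened by 500 bp and -0.442 with lists of equal length, and the siSmc3 difference was 1.11 and -0.100. Relative to all ChIRP regions, the ratio was 1.02 and 0.985 with siDRR, 1.05 and 1.03 with siSmc3, and 1.04 and 1.01 in control, with exact permutation p = 0.667 for each knockdown. When a single replicate of each group was used, the members lost with siDRR numbered 65 without replicate 1 and 72 without replicate 2, and those gained 66 and 62, since 1 list then decided each call. With siSmc3 they numbered 61 and 72 lost, and 82 and 82 gained. Without pool 1 replicate 1, ATAC was lost at 118 of the 66747 regions that the rule would keep with siDRR, and at 149 with siSmc3. No share of all ChIRP regions stands beside these counts.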

How the data were processed

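Each library had 1 peak list of 5 columns, with no header, whose last column is the deposited score of the authors' peak caller on a scale that is not stated. ChIRP lists hold single-base summits, SMC3 and ATAC lists hold intervals. Per the submitters' processing notes, MACS 1.4.2 and MACS2, Bowtie2 2.2.4 and Bowtie 1.1.1, cutadapt 1.12, bcl2fastq 2.17.1 and CASAVA 1.8.2 were used. Their assays, the calling threshold and the control are not stated in the sources used here. No list gives reads, so the depth is unknown.

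Start positions were made 1-based. A library called a region if a peak overlapped it by at least 1 bp. Regions on chromosome Y and unplaced sequences were left out. Libraries were compared by two-sided exact permutation; no test over regions was run. The named regions are the 10 highest by mean rank percentile, the 10 highest with SMC3 in both myotube lists or ATAC in both control lists (only part are printed), the 5 highest lost or gained in each comparison, and the 5 nearest the pool 2 limit. The DRR locus was added after its values were seen. The members and lists were chosen with earlier results of these data known. Alternatives were other summit widths, overlaps and list lengths, each ChIRP library left out, and each replicate number left out of the SMC3 and ATAC groups. The sequence and gene comparisons planned were not made, since an mm9 genome was not used here. Python 3.11.15, numpy 2.4.6, pandas 2.3.3 and scipy 1.17.1 were used. The merging, classing and overlap steps were checked on simulated data, and the permutation tests were not.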

Additional observations from a re-analysis of the deposited data

Results flagged for a closer look

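Regions on chromosome Y and on sequences not placed on a chromosome entered none of the comparisons. Of 771 ChIRP regions there, 9 (1.17%) were called in both pool 1 lists and in neither pool 2 list, against 3.56% of the regions on the chromosomes used. They were noted because they lie outside the sequences analysed and exceed the 3 regions that a count of 0 allows. Of these 9, 5 lay on unplaced sequence of chromosome Y, 2 on sequence of unknown chromosome, 1 on unplaced sequence of chromosome 9 and 1 on that of chromosome X.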

How the results depend on the processing

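Of the values recomputed under each alternative, 194 stayed within limits, 67 moved beyond them and 12 turned round. The limits were 1.5 times for counts and distances, the 95% interval for shares, and the sign alone for differences, which could move far. Over all alternatives the difference in percentage points ran from -0.442 to 0.221 for ATAC with siDRR, -0.100 to 1.11 with siSmc3, -1.0 to -0.0201 for SMC3 with siDRR and -1.46 to -0.141 in myotubes. The values nearest 0 for SMC3 came with lists of equal length. Over all settings the exact permutation p of a library comparison ran from 0.333 to 1. With the better-scoring 50% of each list, there were 1792 members, 0.725% with SMC3 in both myotube lists and 1.17% with ATAC in both control lists; ATAC was lost at 3 and gained at 0 with siDRR, lost at 4 and gained at 1 with siSmc3, and SMC3 was lost at 2 with siDRR and lost at 6 and gained at 0 in myotubes. With lists of equal length, the shares were 0.723% and 1.77%, ATAC was gained at 2 with siDRR and 5 with siSmc3, SMC3 was lost at 1 with siDRR and 2 in myotubes, the siSmc3 minus control difference was -0.100 and the myotube minus myoblast difference in ratio -0.0245. With summits widened by 100 bp, the ATAC share was 2.29%, ATAC was lost at 6 and gained at 6 with siSmc3, SMC3 was lost at 6 in myotubes, and the differences in ratio were -0.0568 for siSmc3 and -0.0775 for SMC3 with siDRR. With 500 bp, the ATAC share was 4.25%, ATAC was gained at 9 and SMC3 at 1 with siDRR, and the siDRR minus control difference was 0.221, with differences in ratio of 0.0295 for ATAC and -0.0483 for SMC3. With an overlap of 100 bp, ATAC was gained at 7 with siDRR and lost at 8 with siSmc3, and the differences in ratio were -0.0144 for siSmc3 and -0.0324 for SMC3 with siDRR. The siSmc3 difference in ratio was -0.0221 with the better-scoring 50%. The counts lost and gained in this paragraph were not set against the share of all ChIRP regions under the same setting. The cause of the changes was not tested.

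Leaving out each ChIRP library in turn, or replicate 1 or 2 of all SMC3 and ATAC groups at once, gave 3473 to 66747 members, SMC3 shares of 1.00% to 3.09% and ATAC shares of 2.34% to 5.81%. The highest shares came without replicate 1 of the SMC3 and ATAC groups, where 1 list decided each call. The lowest came without pool 1 replicate 1, over 66747 regions, so these ranges join unlike measures. Losses and gains of ATAC ran from 11 to 118 and 4 to 66 with siDRR, and from 10 to 149 and 11 to 139 with siSmc3. Those of SMC3 ran from 4 to 55 and 0 to 17 with siDRR, and from 16 to 264 and 2 to 38 in myotubes. The siDRR minus control difference in ATAC ran from -0.289 to 0.0289. The highest counts lost came without pool 1 replicate 1, where they are out of 66747 regions instead of 3459. These counts were not set against the share of all ChIRP regions, and they do not show a higher share lost. The myotube minus myoblast difference in ratio ran from -0.0107, without that library, to 0.112. Replicate numbers are shared between groups but are not said to mark a batch. A fit with a replicate block leaves the differences at -0.130 and 0.448 percentage points for ATAC with siDRR and siSmc3, and -0.679 and -0.997 for SMC3 with siDRR and in myotubes. Its exact sign-flip permutation test of 2 pairs cannot go below 0.5, which was its p except for the percent touched by ATAC with siDRR, where it was 1. Same-numbered libraries deviated together with correlations of 0.148 to 0.282 over members. Peak calls without reads limit all of these values.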
